A study of Mus musculus with 8 samples.

Results

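The loop list of newborn mouse lens epithelium held 1698 loops without a counterpart in the list of lens fiber cells or in that of embryonic stem (ES) cells, out of 7840 loops on chromosomes 1 to 19 (21.7%, 95% Wilson interval 20.8 to 22.6). A counterpart was a loop whose both anchor midpoints lay within 25 kb of those of the epithelium loop. The number depended on this definition, with 2795 loops at a tolerance of 10 kb and 3721 where counterparts were defined by overlap of both anchors. The remaining epithelium loops fell into 2286 with a counterpart in the fiber list only, 527 in the ES cell list only and 3329 in both. These loops were chosen by the contact calls of the 3 Hi-C lists, so that their contact counts, sizes and distances to other loops are given as a description, while CTCF binding sites and gene positions were not used to choose them.

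A chromatin loop is a pair of genomic sites that meet in the nucleus more often than their surroundings do. Many loops form when the ring-shaped cohesin complex extrudes chromatin until it meets CTCF, a zinc-finger protein whose bound motif has a direction, and others join promoters with enhancers or regions of like chromatin state. The lens epithelium is the anterior cell sheet of the lens, which keeps dividing at its equatorial zone and supplies the cells that elongate into fiber cells.

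Hi-C was performed on epithelium and fiber cells microdissected from CD-1 lenses at postnatal day 0.5 and on the wild-type ES cell line v6.5, with 2 replicates of each. Each lens replicate pooled the tissue of 30 lenses, and all Hi-C samples were crosslinked in 2.0% formaldehyde. CTCF ChIP-seq was performed on epithelium and fiber cells from 200 CD-1 lenses of the same age, and 1 peak list of each was deposited. The lens samples and the ES cell line thus differed in strain as well as in cell type, and the 2 cannot be told apart. Each Hi-C list came from both replicates merged, so that the spread between replicates is unknown and cell types could not be tested against each other. The lists hold no expression values, so the labelled cell types could not be checked against their markers.

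Absence from a list is not absence of contact. HiCCUPS, the loop caller, lists a pixel only where its contacts exceed those expected from all surroundings, and no contact values of fiber or ES cells were at hand for the pixels of these loops. Intervals given below are 95% intervals for shares (Wilson), medians (order statistics) or contact counts (exact Poisson), and all cover counting error only.

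Promoters with a CTCF motif are shown first, because they give the loop ends at which both a gene start and a possible CTCF site can be read as sequence. The core CTCF motif, with its variable positions left free, was searched on both strands of the RefSeq promoter windows of GRCm38.p6 (250 bases before and 50 after each start site), the same assembly as the mm10 build of the lists. Of 31396 promoters, 2.47% held a match (775), against 41 of the 1358 promoters at anchors of these loops (3.02%, 2.23 to 4.07). Among promoters at anchors of any epithelium loop it was 3.84% (172 of 4474). A match lay in a window with a CTCF peak of either lens list at 17 of the 1358 promoters (1.25%, 0.783 to 2.00), compared with 0.812% of all promoters and 1.72% of the 4474 promoters at anchors of any epithelium loop. The intervals overlapped the share of all promoters in both cases. Named genes among those with a match under a peak numbered 11, of which 5 are printed here with 20 bases on each side, read along the gene and with the motif match in capitals. They were chosen after their values were seen, as those with peaks in both lists and 1 signalling gene.

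Nemp2: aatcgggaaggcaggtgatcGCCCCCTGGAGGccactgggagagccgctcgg
Crbn: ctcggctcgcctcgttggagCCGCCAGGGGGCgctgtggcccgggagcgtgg
Noc3l: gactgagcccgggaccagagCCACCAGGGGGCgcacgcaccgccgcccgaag
Lsm11, nearer match: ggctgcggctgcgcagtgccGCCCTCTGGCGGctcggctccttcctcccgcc
Lsm11, farther match: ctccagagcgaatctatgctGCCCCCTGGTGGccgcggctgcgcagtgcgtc
Wnt1: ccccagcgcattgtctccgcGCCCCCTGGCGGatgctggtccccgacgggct

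The window of Nemp2, which encodes an inner nuclear membrane protein, lay at chr1:52630602-52630653, on the plus strand, and its motif match ended 71 bases before the start site. It was bound in both lens lists, with a MACS2 fold enrichment of 4.54 in epithelium and 7.94 in fiber cells, and it lay in the right-hand anchor of 2 of these loops, of 350 and 500 kb. The window of Crbn, the substrate receptor of a ubiquitin ligase, was at chr6:106800132-106800183 on the minus strand, with fold enrichments of 10.3 and 10.5 and a loop of 900 kb. Noc3l, a ribosome assembly factor gene, had its window at chr19:38819267-38819318, minus strand, with fold enrichments of 8.97 and 11.5 and a loop of 100 kb. Both windows of Lsm11, which encodes a subunit of the histone pre-mRNA processing complex, were on the minus strand, at chr11:45944943-45944994 and chr11:45945007-45945058. They lay under 1 peak, the most enriched shown here in fiber cells (8.57 in epithelium and 17.3 in fiber cells), at the end of a loop of 1350 kb. Wnt1, a secreted signalling ligand, had its window at chr15:98789649-98789700 on the plus strand, with a peak in the fiber list only (4.20) and a loop of 125 kb. Over all 12 matches of the 11 genes, 4 were directed into the loop and 8 out of it. These windows cover a small piece of each anchor, so that this says nothing of other CTCF motifs in the same anchors.

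CTCF binding was less frequent at the anchors of these loops than at those of loops with a counterpart. A peak of the epithelium list lay at both anchors of 196 of the 1698 loops (11.5%, 10.1 to 13.2), where 15.9% of all epithelium loops had one. The share was 15.7% (14.2 to 17.2) among loops with a counterpart in the fiber list, 17.5% (14.5 to 20.9) with one in the ES cell list and 18.1% (16.8 to 19.4) with one in both. The interval for these loops overlapped none of the 3 others.

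The larger fiber list of 23868 peaks, against 16433 in the epithelium list, gave the same order at a higher level. Its peaks lay at both anchors of 452 of these loops (26.6%, 24.6 to 28.8), with 38.3% over all epithelium loops. Shares of 39.4% (37.4 to 41.4), 40.4% (36.3 to 44.7) and 43.3% (41.6 to 45.0) were found in the 3 classes with a counterpart. On each of the 19 chromosomes the share was lower in these loops than in those with a counterpart, and for the epithelium list it was lower on 16 of 19. No peak of either list lay at any anchor of 434 of these loops (25.6%, 23.5 to 27.7), against 877 of the 6142 with a counterpart (14.3%, 13.4 to 15.2).

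**Figure D1:**
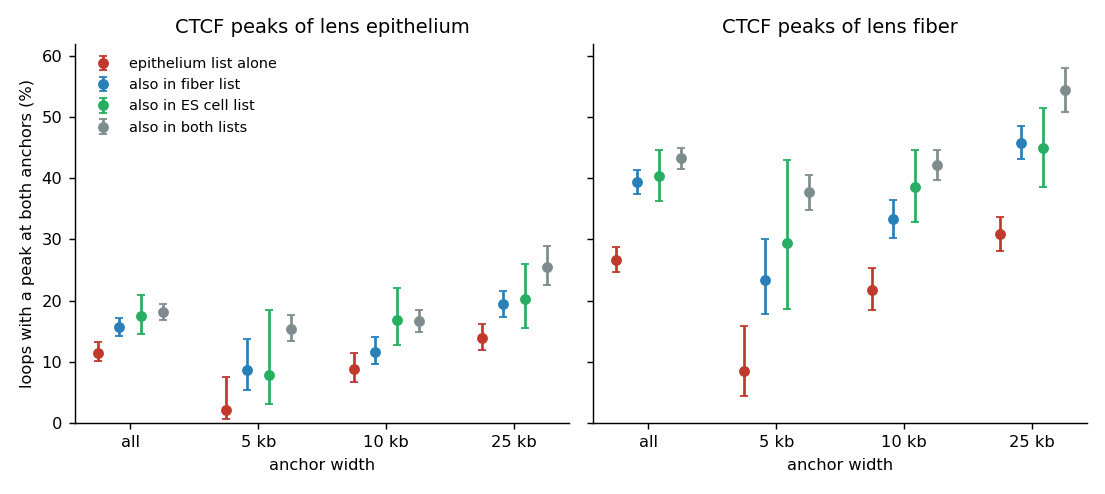
Share of epithelium loops with a CTCF peak at both anchors (vertical axis, %), for peaks of lens epithelium (left) and lens fiber cells (right), over all loops and by anchor width, with bars for 95% Wilson intervals. Loops of the epithelium list alone (red) have the lowest share at every width, from 8.51% at 5 kb to 30.9% at 25 kb for fiber peaks.

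The width of the anchors moved with this difference. Loops are called at 5, 10 or 25 kb, and a wide anchor has more room for a peak. These loops were called mostly at 25 kb (1043, 61.4%), with 561 at 10 kb and 94 at 5 kb, whereas the loops with counterparts in both lists were split into 705, 1497 and 1127. Within a width, the share with fiber CTCF at both anchors was 8.51% (4.38 to 15.9) at 5 kb, 21.7% (18.5 to 25.3) at 10 kb and 30.9% (28.1 to 33.7) at 25 kb. It was 37.7% (34.9 to 40.6), 42.2% (39.7 to 44.7) and 54.5% (50.8 to 58.1) in loops with counterparts in both lists. Thus the order held at each width and the gap was widest at 5 kb. Epithelium CTCF lay at both anchors of 2.13% (0.585 to 7.43), 8.73% (6.67 to 11.4) and 13.9% (11.9 to 16.1) of these loops. This was again the lowest share at each width. The intervals overlapped those of loops with a fiber counterpart only, at 5 kb (5.42 to 13.7) and 10 kb (9.64 to 14.0). They also overlapped those with an ES cell counterpart only, at 5 kb (3.09 to 18.5) and 25 kb (15.5 to 26.0).

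Where a peak was present, it was as enriched at these anchors as elsewhere. The strongest epithelium peak of a bound anchor had a median fold enrichment of 6.18 (6.03 to 6.32) over 1073 anchors of these loops and 6.21 (6.16 to 6.28) over 4932 anchors of loops with a counterpart. Peaks without an overlapping fiber peak were at 175 of the 3396 anchors (5.15%, 4.46 to 5.95), close to the 4.75% (4.39 to 5.14) of anchors with a counterpart, and the intervals overlapped.

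Anchors of these loops were in part also loop anchors in the other cell types. A loop anchor of the fiber list lay within 25 kb of 1 anchor in 860 loops (50.6%, 48.3 to 53.0) and of both in 486 (28.6%, 26.5 to 30.8). The 527 epithelium loops with a counterpart in the ES cell list only, which lack a fiber counterpart too, had similar shares, of 53.3% (49.1 to 57.5) and 29.2% (25.5 to 33.2). For the ES cell list these numbers were 844 (49.7%) and 375 (22.1%), and the loops with a counterpart in the fiber list only had shares of 52.2% (50.2 to 54.3) and 26.2% (24.4 to 28.0). In 227 loops (13.4%) both anchors were loop anchors in both other lists but joined to other partners there, and in 222 (13.1%) neither anchor was one in either list.

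These 2 extremes differed in size and in CTCF, the latter not having been used to choose them. The 227 loops made from known anchors had a median size of 475 kb and fiber CTCF at both anchors in 45.4% (39.0 to 51.9), a share whose interval holds that of loops found in all 3 lists. The 222 loops with anchors of their own had a median size of 122 kb and fiber CTCF at both anchors in 10.4% (7.0 to 15.1), and 133 of them (59.9%) had no fiber peak at either end. Anchor width differed as well, with 25 kb anchors in 169 of the 227 (74.4%) and in 107 of the 222 (48.2%). At 25 kb the shares with fiber CTCF at both anchors were 48.5% (41.1 to 56.0) and 15.0% (9.42 to 22.9), and at 10 kb 37.7% (25.9 to 51.2) and 7.32% (3.40 to 15.1). At 5 kb only 5 of the 227 remained, 1 of them with fiber CTCF at both anchors, as had 1 of 33 of the 222.

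Some of these loops lay only slightly farther than 25 kb from a loop of another list. The nearest loop of either list was 27.5 kb away at the least, which held for 38 loops, and 142 kb at the median (132 to 150). It was beyond 100 kb for 1077 loops (63.4%, 61.1 to 65.7) and beyond 1000 kb for 54 (3.18%). Just beyond the limit, an epithelium loop of 160 kb from Npas2 (43 contacts, 12.5 expected) was 27.5 kb from an ES cell loop. One of 360 kb between Dnah7b and Dnah7c (15 contacts, 1.62 expected) was 27.5 kb from a fiber loop. One of 540 kb from Daw1 (49 contacts, 9.96 expected) was 27.5 kb from an ES cell loop. At the limit itself, 391 epithelium loops had their nearest counterpart at exactly 25 kb and so were not among these loops. The first 3 of them along chromosome 1 were a loop of 1125 kb from Mrpl15 to Npbwr1 (54 contacts, 16.6 expected), one of 1400 kb ending at Stau2 (29 contacts, 7.41 expected) and one of 275 kb from Nck2 to Uxs1 (95 contacts, 47.9 expected), each with a fiber loop at that distance.

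**Figure D2:**
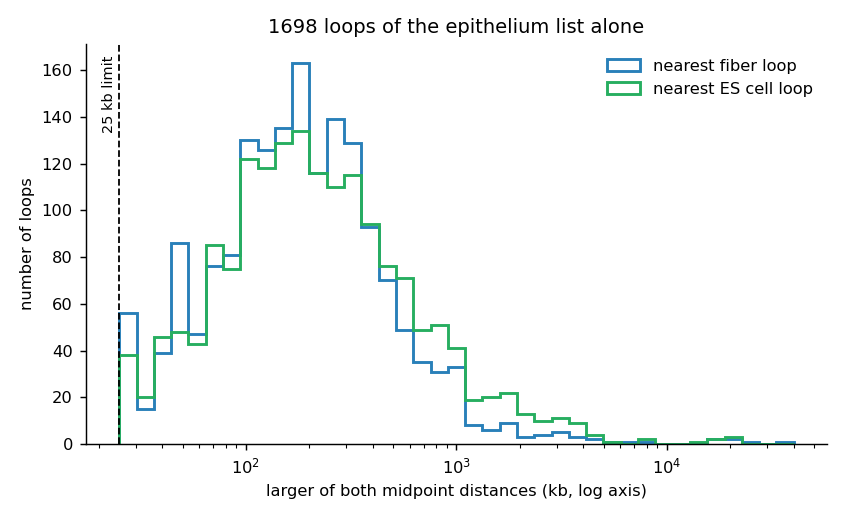
Distance of each of the 1698 loops to the nearest loop of the fiber list (blue) and of the ES cell list (green), as the larger of both anchor midpoint distances (kb, log axis), with the number of loops on the vertical axis. The dashed line is the 25 kb limit, and the medians are 175 kb for fiber loops and 200 kb for ES cell loops.

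These loops had more contacts than loops with counterparts in both lists, but less enrichment over their surroundings. The median loop had 59 observed contacts (57 to 62), between 13 and 297, and 23.4 expected from the donut of pixels around it (22.4 to 24.8), where loops with counterparts in both lists had 41 observed contacts (40 to 42). Wider pixels collect more contacts, and within a width the order turned, with medians of 22 against 25 at 5 kb, 42 against 46 at 10 kb and 81 against 102 at 25 kb. The ratio of observed to expected contacts was 2.55 (2.52 to 2.59) in these loops, against 3.66 (3.60 to 3.71) in loops with counterparts in both lists. Within a width the median ratios were 4.65 against 5.10 at 5 kb, 2.89 against 3.41 at 10 kb and 2.36 against 2.65 at 25 kb. Loops with an ES cell counterpart only had nearly the same ratios as these loops, of 4.65, 2.96 and 2.36. Those with a fiber counterpart only had 5.07, 3.24 and 2.53. A single pixel carried the call in 1084 of these loops (63.8%, 61.5 to 66.1), against 25.9% of loops with counterparts in both lists. It did so in 51.8% of loops with an ES cell counterpart only and in 39.0% with a fiber counterpart only. A weaker loop is closer to the detection limit of the caller in every list, and its part in the absence from the other lists was not tested.

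Sizes lay between those of the other classes over all widths. The median was 250 kb (230 to 275) in these loops, 180 kb (150 to 200) in loops with an ES cell counterpart only, 225 kb (220 to 240) with counterparts in both lists and 325 kb (320 to 350) with a fiber counterpart only. Over all loops with a counterpart it was 250 kb (250 to 260). At 5 kb anchors these loops were shorter than those with counterparts in both lists, at 62.5 kb (55 to 75) against 165 kb (160 to 175), and so they were at 10 kb anchors, at 120 kb (110 to 140) against 220 kb (200 to 230). At 25 kb anchors both medians were 375 kb.

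Few of these loops marked the corner of a topologically associating domain (TAD), a block of chromatin that contacts itself. Both anchor midpoints lay within 25 kb of the 2 ends of an epithelium TAD in 84 loops (4.95%, 4.01 to 6.08), with 14.8% over all epithelium loops and 23.5% (22.1 to 24.9) in loops with counterparts in both lists. The share was lower in these loops on all 19 chromosomes. At 5, 10 and 25 kb anchors it was 2.13%, 9.27% and 2.88%, against 31.8%, 24.0% and 8.94% with counterparts in both lists. Over all epithelium loops with 25 kb anchors it was 5.11%. At that width the interval of these loops (2.02 to 4.08) overlapped that of loops with a fiber counterpart only (4.68%, 3.65 to 5.99). Neither anchor lay inside an epithelium TAD in 1041 loops (61.3%, 59.0 to 63.6), near the 58.3% of all epithelium loops. TADs and loops were called from the same contact maps, so the 2 are not independent.

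**Figure D3:**
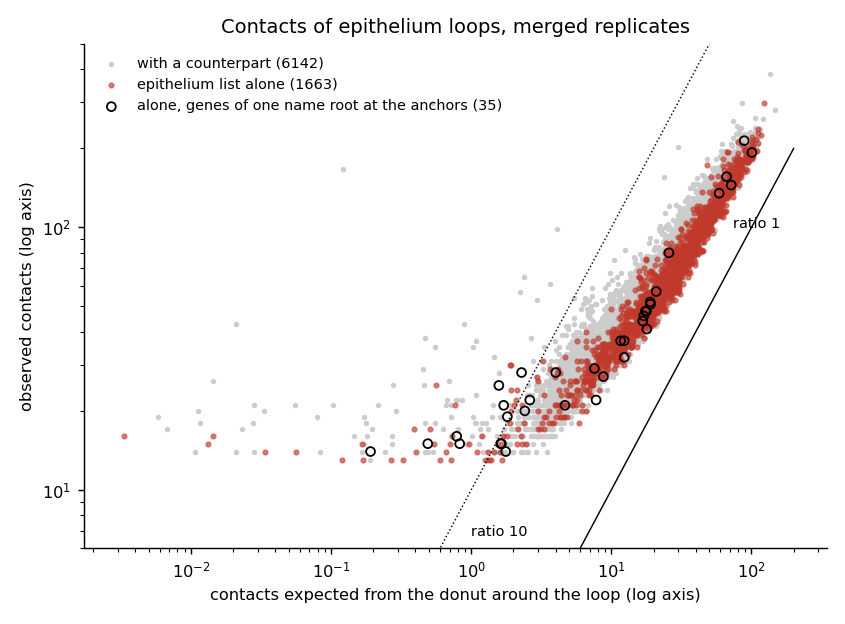
Observed contacts (vertical) against contacts expected from the donut around the loop (horizontal), both on log axes, for epithelium loops with a counterpart (grey), those of the epithelium list alone (red) and, circled, the 35 of the latter with different genes of 1 name root at their anchors. Lines mark ratios of 1 and 10; the red points lie along the lower edge of the grey ones, and the circled points reach into the sparse area beyond a ratio of 10.

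Among the 10 loops with the highest ratios and at least 20 contacts, 5 had genes of 1 family at both ends. The highest ratio was that of a loop from a site without a named gene to Klra4, a natural killer cell receptor gene, at chr6:129985001-129990000 and chr6:130060001-130065000, with 25 contacts (16.2 to 36.9) against 0.564 expected. The next joined Slc28a2 and Slc28a2b, nucleoside transporter genes, at chr2:122455001-122460000 and chr2:122520001-122525000, with 21 contacts (13.0 to 32.1) against 0.769 expected. Then came Cd200r1 and Cd200r4, receptors for the immune ligand CD200, with 25 contacts against 1.58 expected over 45 kb.

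Of the other 7, 3 joined genes of 1 family. A loop of 1475 kb joined H2-K1 and H2-Q10 of the major histocompatibility complex (30 contacts, 1.94 expected), and one of 80 kb joined H2-T22 and H2-T10 of the same complex (28 contacts, 2.29 expected). Pramel24 and Pramel11, oocyte and embryo-expressed leucine-rich repeat genes, had 21 contacts over 170 kb against 1.71 expected. In the other 4 no such pair was met. Oog3, an oocyte gene on the same chromosome, had 22 contacts over 320 kb with a site without a named gene, against 2.08 expected. Tubb3-ps1, a tubulin pseudogene, was joined to Eif4a3l1 over 80 kb with 24 contacts against 2.12 expected. Mrgpra3, an itch receptor gene, stood at 1 end of a loop of 9400 kb with 24 contacts against 1.92 expected, and a loop of 105 kb at chr7:103570001-103575000 without a named gene had 30 against 1.90 expected.

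Counted over all these loops by a rule set after the values were seen, the anchors lay over different genes with the same name root in 35 (2.06%, 1.49 to 2.85), with 1.20% over all epithelium loops. Roots such as Zfp, Cd and Slc take in genes that are not close copies, and Klra4 and Slc28a2b were not caught by the rule. The share was higher at higher ratios, from 15 of 1121 loops with ratios from 2 to 3 (1.34%) to 6 of 54 from 5 to 10 (11.1%) and 8 of 41 above 10 (19.5%, 10.2 to 34.0). It was 7 of 88 above a ratio of 10 in loops with a counterpart (7.95%, 3.91 to 15.5), and these 2 intervals overlapped. The 8 were at Ceacam, Dnah7 (2 loops), Nlrp1, Cd200r, Pramel, H2-T and Ifi genes. Of the 41 loops above a ratio of 10, 32 had no fiber CTCF peak at either anchor, as had 62 of the 88 with a counterpart. Near-identical copies can exchange reads even at a mapping quality of at least 30, and CD-1 mice are not of the reference strain, so contacts between such copies are uncertain. Whether read placement has a part in these loops was not tested.

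The longest loops carried few contacts. The 5 longest spanned 88320 kb from Nyap2 on chromosome 1, 84150 kb on chromosome 8, 74120 kb from Lama2 on chromosome 10, 51425 kb on chromosome 15 and 43175 kb from Mapk1ip1l on chromosome 14. They had 16 (9.15 to 26.0), 15, 14, 13 and 15 contacts, against between 0.00332 and 0.324 expected, and no CTCF peak of either list lay at any of their anchors. In all, 26 of these loops (1.53%, 1.05 to 2.23) were longer than 3 Mb, against 56 of those with a counterpart (0.912%, 0.703 to 1.18).

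The most contacts were found at short distances. A loop of 150 kb from Cdrt4 to Pmp22, which encodes a peripheral myelin protein also found in epithelia, had 297 contacts (264 to 333) against 123 expected. Commd9 and Ldlrad3, the latter a receptor-like membrane protein gene, were joined over 100 kb with 238 contacts (209 to 270) against 111 expected. The other 3 lay within 1 gene each, Ttc28 (229 contacts against 111 expected), Mical3, a monooxygenase gene (225 against 117), and Lmx1a, a LIM homeobox gene (222 against 101).

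Loops inside a single gene were more frequent among these loops. The same protein-coding gene lay at both anchors of 255 loops (15.0%, 13.4 to 16.8), with 10.4% over all epithelium loops and 8.17% (7.29 to 9.15) in loops with counterparts in both lists. The share was higher than in loops with a counterpart on 16 of 19 chromosomes and lower on 2. Within a width it was 18.1%, 21.7% and 11.1% at 5, 10 and 25 kb, against 9.23%, 8.82% and 5.11% with counterparts in both lists. Loops with a fiber counterpart only had 10.3%, 13.8% and 8.25%. Their intervals overlapped those of these loops at 5 kb (6.71 to 15.6 and 11.6 to 27.1) and 25 kb (6.86 to 9.90 and 9.35 to 13.2). Among chromosomes the share in these loops was highest on chromosome 14, with 29.1%. Of the 255, only 9 (3.53%) joined both ends of the gene, 101 (39.6%) had an anchor at 1 end and 145 (56.9%) lay with both anchors inside it. The genes were long, with a median length of 313 kb (276 to 337). For such loops with a fiber counterpart only it was 328 kb (281 to 381). It was 261 kb (222 to 302) for the 272 such loops with counterparts in both lists, and these intervals overlapped.

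Rarb, the retinoic acid receptor beta, held the most of them. All 4 epithelium loops with both anchors inside this gene of 651 kb (chr14:16430839-17082331) were without a counterpart. They spanned 200, 300, 100 and 100 kb, with 93 (75.1 to 114), 106 (86.8 to 128), 46 (33.7 to 61.4) and 69 (53.7 to 87.3) contacts against 44.4, 48.8, 15.1 and 22.6 expected. The first 2 shared an anchor, at chr14:16575001-16600000. No CTCF peak of either lens list lay at any of these anchors, and the fiber list held 1 loop inside the gene and the ES cell list none. Thrb, the thyroid hormone receptor beta and another nuclear receptor gene further along the same chromosome, held 2 of these loops, of 200 and 70 kb, with 122 and 48 contacts against 56.8 and 21.4 expected. They too had no CTCF peak at any anchor, and neither other list held a loop inside Thrb.

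In all, 26 genes held 2 or more such loops inside them, and those named here were chosen after their values were seen. Nrxn3, a synaptic adhesion gene, held 3 of 50, 325 and 110 kb, with 60, 91 and 40 contacts against 27.5, 37.7 and 13.8 expected, and only the longest had CTCF peaks of both lists at both anchors. Efna5, an ephrin ligand with a known part in lens cell adhesion, held 2 loops of 170 and 80 kb, with 31 (21.1 to 44) and 46 (33.7 to 61.4) contacts against 11.6 and 18.4 expected. The nearest fiber loop to them was 2752 and 2662 kb away and the nearest ES cell loop 680 and 590 kb, and neither other list held a loop inside this gene. Cux1, a homeobox gene, held 2 loops of 280 and 200 kb with 51 and 190 contacts against 18 and 96.7 expected, and none in the other lists. The glypican genes Gpc5 and Gpc6, which encode heparan sulfate proteoglycans of the cell surface, held 2 each, with between 63 and 92 contacts.

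Gene ends lay at these anchors about as often as at those of other loops of the same width. An end of a protein-coding gene, taken from 1 kb outside to 100 bp inside because the gene table has no strand, lay at either anchor of 942 loops (55.5%, 53.1 to 57.8), with 52.0% over all epithelium loops. Within a width the share was 36.2%, 51.3% and 59.4% at 5, 10 and 25 kb anchors, against 37.4%, 49.7% and 63.0% in loops with counterparts in both lists. Both anchors had a gene end in 253 loops (14.9%, 13.3 to 16.7), with 12.2% over all epithelium loops. Within a width this share was 5.32%, 10.2% and 18.3%, against 4.88%, 10.2% and 18.2% in loops with counterparts in both lists.

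Genes known in the lens were looked up in 6 lists. Over all protein-coding genes of these chromosomes, 7.12% (1472 of 20665) had an end at an anchor of one of these loops and 23.5% at an anchor of any epithelium loop. Among 37 lens transcription factors these numbers were 9 (24.3%) and 24 (64.9%), among 52 signalling genes 8 (15.4%) and 27 (51.9%), and among 21 proliferation genes 4 (19%) and 8 (38.1%). Thus the first 3 lists were above the share of all genes in either count, and this excess was not particular to these loops. Of the genes at any epithelium loop, 9 of 24, 8 of 27 and 4 of 8 were at these loops, against 1472 of 4866 of all genes. Krt5 of 34 epithelial adhesion and matrix genes (2.94%) and none of 31 crystallin and fiber protein genes had an end at one of these loops. At any epithelium loop, 10 and 11 of them had one. In lists of this size, 7.12% would be only a few genes, so these low counts do not set the lists apart from all genes. Of 10 CTCF and cohesin genes on these chromosomes, Pds5a, a cohesin regulator, had one.

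**Figure D4:**
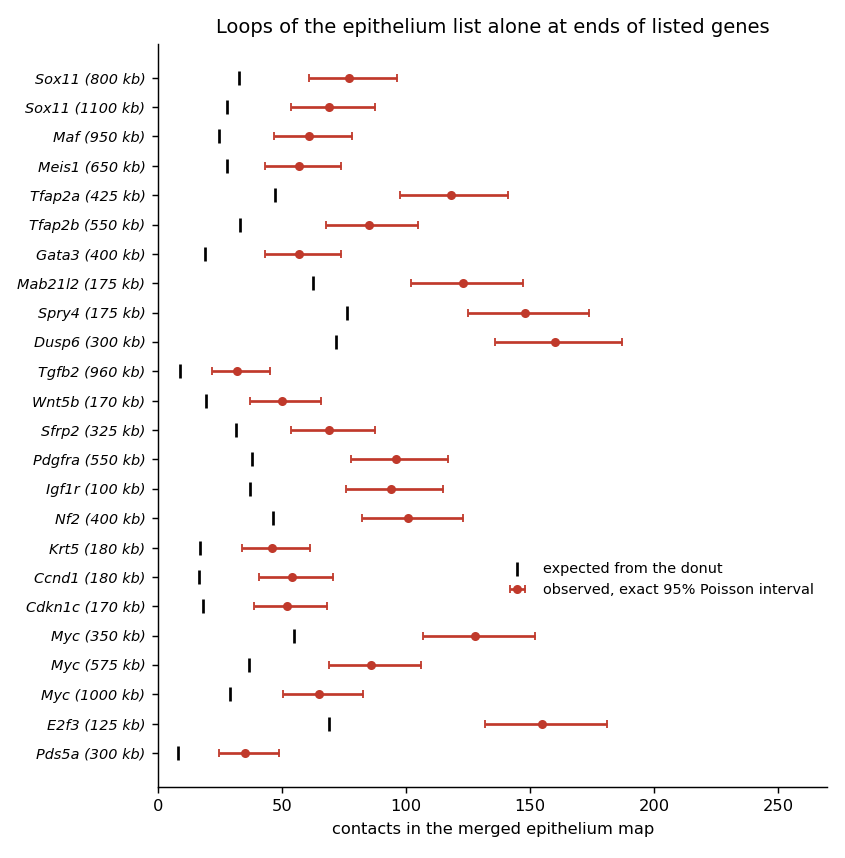
Observed contacts (red points, with exact 95% Poisson intervals) and contacts expected from the donut (black ticks) of 24 loops of the epithelium list alone with an anchor at an end of a listed gene, with loop size in parentheses. All lower bounds lie above the expected contacts, by which loops are listed in the first place, and the counts run from 32 at Tgfb2 to 160 at Dusp6.

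Transcription factor genes were joined both to sites without a gene and to sites over other genes. Sox11, a SoxC factor active in early eye formation, lay at the end of 2 loops to either side. That of 800 kb, to a site without a gene, had 77 contacts (60.8 to 96.2) against 32.8 expected. That of 1100 kb, to Dcdc2c, had 69 (53.7 to 87.3) against 27.6. These were its only epithelium loops, and the fiber and ES cell lists held none at its ends. Its anchor was chr12:27325001-27350000 in both.

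Maf, a large Maf factor gene whose product regulates fiber cell crystallins, showed loops both with and without counterparts. It had 4 epithelium loops and 4 fiber loops, but none in ES cells. The 3 epithelium loops running to higher coordinates had fiber counterparts, and the loop without one ran the other way, over 950 kb into Wwox (chr8:114750001-114775000), with 61 contacts (46.7 to 78.4) against 24.7 expected and CTCF peaks of both lists at both anchors.

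Meis1, a TALE homeobox gene active in early eye formation, had 1 of these loops, of 650 kb with 57 contacts (43.2 to 73.9) against 27.6 expected.

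The AP-2 factor genes Tfap2a, needed for lens epithelium development, and Tfap2b had 1 each. That of Tfap2a reached 425 kb into Ofcc1 with 118 contacts (97.7 to 141) against 47.3 expected, without a CTCF peak at either anchor. That of Tfap2b spanned 550 kb with 85 contacts (67.9 to 105) against 32.9. Both genes had more loops in ES cells, with 9 at Tfap2a and 6 at Tfap2b. Gata3, a zinc-finger factor gene needed for fiber cell differentiation, had a single epithelium loop of 400 kb with 57 contacts (43.2 to 73.9) against 19 expected, where the fiber list had 1 of 130 kb into Taf3. Mab21l2, which lies within Lrba and is required for eye formation, had 1 of 175 kb with 123 contacts (102 to 147) against 62.4 expected, with both anchors over Lrba.

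Signalling genes at these loops included feedback inhibitors, ligands and receptors. Dusp6, an ERK phosphatase induced by FGF signalling, had its only loop here, of 300 kb with 160 contacts (136 to 187) against 71.7 expected and no CTCF peak at either anchor. Spry4, another FGF feedback inhibitor, had its only loop of 175 kb into Arhgap26, with 148 contacts (125 to 174) against 76.2 expected. Both anchors of this loop lay over Arhgap26 as well, so that it counts among the loops inside 1 gene, and the anchor held only the end of Spry4. Neither gene had a loop at its ends in the fiber or ES cell list. The ligand gene Tgfb2 had a loop of 960 kb with 32 contacts (21.9 to 45.2) against 8.90 expected, and Wnt5b had one of 170 kb to Erc1 with 50 (37.1 to 65.9) against 19.4.

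The receptor genes Pdgfra and Igf1r carried loops in every list. Pdgfra had 5 epithelium loops, of which 1 was without a counterpart, running 550 kb to Lnx1 with 96 contacts (77.8 to 117) against 38.0 expected and with CTCF peaks of both lists at both anchors. Igf1r had 1 of 3, of 100 kb to Fam169b with 94 contacts (76.0 to 115) against 37.0 expected, while a longer loop to Fam169b of 350 kb was in both lens lists. Sfrp2, a secreted Wnt inhibitor, had 1 of 325 kb to Mnd1 with 69 contacts (53.7 to 87.3) against 31.6. Nf2, the Merlin gene of the Hippo pathway, had its only loop of 400 kb to Hormad2 with 101 contacts (82.3 to 123) against 46.4, and none was listed in fiber or ES cells.

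Cell cycle genes were joined at 6 loops. Ccnd1, cyclin D1, had a loop of 180 kb with 54 contacts (40.6 to 70.5) against 16.4 expected beside one of 305 kb to Tpcn2 that was in all 3 lists. Cdkn1c, the imprinted inhibitor p57 that marks cell cycle exit in the lens, was joined over 170 kb to Kcnq1 and Kcnq1ot1, the transcript of the imprinting centre of this domain, with 52 contacts (38.8 to 68.2) against 18.2 expected. The ES cell list had a loop of Cdkn1c to Igf2 instead, of 790 kb, and the fiber list none at its ends. E2f3 had 155 contacts (132 to 181) to Cdkal1 over 125 kb against 68.8 expected.

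Myc, a growth-promoting transcription factor gene with long-range enhancers, had 3 of these loops among its 8 epithelium loops. All started from chr15:61975001-62000000 and ran to higher coordinates, over 350, 575 and 1000 kb, with 128 (107 to 152), 86 (68.8 to 106) and 65 (50.2 to 82.8) contacts against 54.9, 36.6 and 28.9 expected. The anchor at Myc held a fiber CTCF peak and no epithelium peak, and the far anchors held none of either list. The nearest fiber loops at Myc spanned 825 and 1125 kb, and the ES cell list had loops of 50, 105, 480 and 1675 kb there, the 2 shortest ending in Pvt1.

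**Figure D5:**
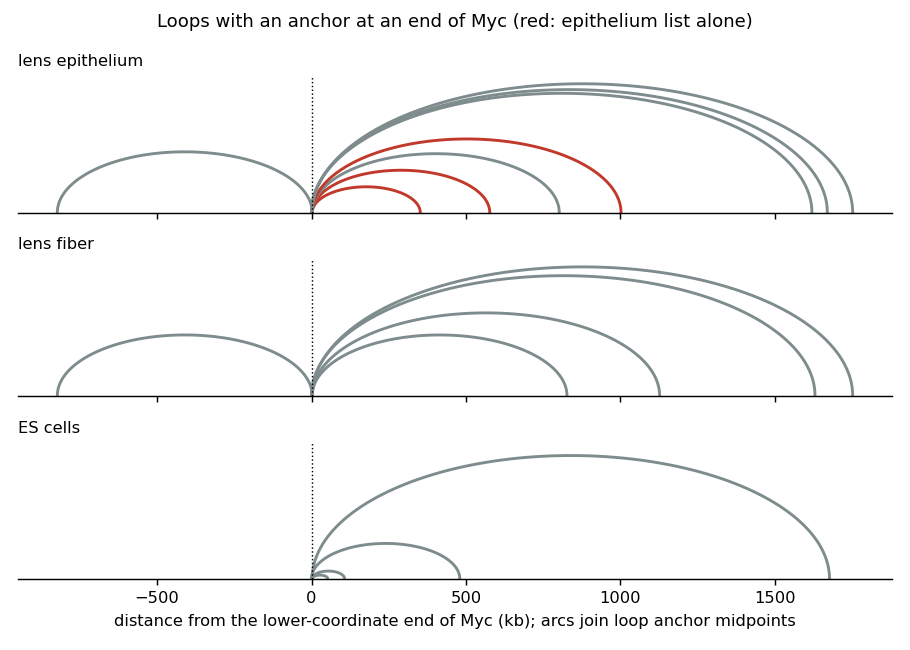
Loops with an anchor at an end of Myc in the epithelium, fiber and ES cell lists (top to bottom), drawn as arcs by distance from the lower-coordinate end of the gene (kb). The 3 red arcs of 350, 575 and 1000 kb are of the epithelium list alone and have no fiber or ES cell arc with the same end points within 25 kb.

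In the epithelial and cohesin lists, 1 gene each was met. Krt5, a basal epithelial keratin gene, was joined to Krt84 of the same keratin cluster over 180 kb with 46 contacts (33.7 to 61.4) against 17.0 expected, and was without a loop in the other lists. Pds5a was joined over 300 kb to Lias and Rpl9 with 35 contacts (24.4 to 48.7) against 7.91, at the corner of an epithelium TAD.

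Few sites carried more than 1 of these loops. The 3396 anchors merged into 3192 sites, of which 3001 had 1 loop, 179 had 2, 11 had 3 and 1 had 4. The site with 4 lay at chr16:77425001-77450000 in Mir99ahg, the host transcript of a microRNA cluster, with loops of 100, 175, 275 and 725 kb, between 73 and 176 contacts, and no CTCF peak of either list. All 4 lay within 1 epithelium TAD and were at least 175 kb from any fiber loop.

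The 11 sites with 3 were tied and are given by their range, with 4 named after their values were seen. That of Nemp2 (chr1:52625001-52650000), whose promoter is printed above, had loops of 100, 350 and 500 kb with 33, 104 and 61 contacts, and 2 peaks in each CTCF list. That of Commd9 had loops of 100, 200 and 375 kb with 238, 39 and 121 contacts. Emc2, a gene for a membrane protein insertion factor, was joined over 500 kb to Rspo2, a secreted enhancer of Wnt signalling, with 109 contacts (89.5 to 131) against 42.8 expected. Flrt2, a cell adhesion gene, had loops of 200, 950 and 2125 kb with 120, 75 and 44 contacts, of which the longest had a fiber CTCF peak at 1 end and the others none. Counting every epithelium loop, the most anchors at 1 of these sites were 8, at Myc.

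Loops without a counterpart were less often bound by CTCF in the other lists too. The fiber list held 1432 of 7502 loops without a counterpart in the other 2 (19.1%, 18.2 to 20) and the ES cell list 3821 of 8205 (46.6%, 45.5 to 47.6). Fiber CTCF lay at both anchors of 34.9% (32.5 to 37.4) of those in the fiber list, against 40.5% (39.3 to 41.8) of fiber loops with a counterpart. For the ES cell list, which had no CTCF list of its own, the shares were 21.0% (19.8 to 22.4) and 44.9% (43.4 to 46.4), so that the lower share was found in each list and not in lens epithelium alone. Their median sizes were 300 kb (280 to 350) in fiber cells and 220 kb (210 to 230) in ES cells, and their median ratios of observed to expected contacts 2.40 and 2.86.

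The share of epithelium loops without a counterpart differed between chromosomes. It ran from 17.3% on chromosome 4 (14.0 to 21.2) to 31.6% on chromosome 14 (26.9 to 36.7). On chromosomes 7 (25.6%, 22.0 to 29.6), 12 (25.9%, 21.8 to 30.6) and 14 the interval lay above the 21.7% of all chromosomes, and on chromosomes 4 and 10 (17.7%, 14.3 to 21.6) below it. Chromosome 14 also held Rarb, Thrb, Gpc5, Gpc6, Cacna1d, Cacna2d3, Dock9, Enox1, Erc2 and Lrmda, which are 10 of the 26 genes with 2 or more of these loops inside them.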

How the data were processed

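Loops and topologically associating domains of 3 cell types and CTCF peaks of both lens cell types were used. The authors aligned Hi-C reads to mm10 with bwa-mem in the ENCODE pipeline, kept those of mapping quality of at least 30, merged both replicates and called loops with HiCCUPS (juicer_tools 2.13.06) and domains with Arrowhead. In the deposited loop lists, observed contacts are raw counts and expected contacts a signal that HiCCUPS estimated from the surroundings, with an FDR (q-value) for each of 4 surroundings. A CTCF peak deposited by the authors carries a score, a fold enrichment, and the −log10 of its p-value and q-value from MACS2, called on uniquely mapped reads with at most 2 mismatches.

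Counterparts, overlaps of at least 1 bp with peaks, domains and genes, and intervals were obtained from scipy 1.17.1, pandas 2.3.3 and numpy 2.4.6 under Python 3.11.15, with plots by matplotlib 3.10.9. These steps were tested on simulated data, and 7 of 7 checks gave the known answer. Loop size is the distance between anchor midpoints, and coordinates are counted from 1. Genes and promoters are those of RefSeq on GRCm38.p6, and the promoter table covered 25748 genes. Read depths of the merged maps and ChIP-seq libraries were not analysed here, so that precision is given by the contacts of each loop.

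The loops and gene lists were chosen with earlier results of these data known. Loops were named by a rule: the 10 with the largest observed to expected ratio among those with at least 20 contacts, the 5 with most contacts, the 5 longest, the 3 on each side of the 25 kb limit, the sites with most loops, and those with an anchor at an end of a listed gene, some of which are not reported here. Of the sites with 3 loops, which were tied, not all are named. Loops inside 1 gene, the name root rule and the printed promoters were chosen after the values were seen. Alternatives changed the tolerance, the definition of a counterpart, the FDR, the anchor width, the peak, domain and gene end definitions.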

Additional observations from a re-analysis of the deposited data

How the results depend on the processing

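No paired analysis was possible because each list pools both replicates, and for the same reason no replicate could be left out. Of 72 values under 15 alternatives, 38 stayed within the interval of the value reported, or within 1.5 times for the number of loops, and 34 moved. A tolerance of 10 kb gave 2795 loops, fiber CTCF at both anchors of 29.0% and 1 anchor in a fiber loop in 54.5%, and a tolerance of 50 kb gave 46.8% for the last. Counterparts by overlap of both anchors gave 3721 loops, with neither anchor in an epithelium TAD in 58.3%, a gene end in 52.5%, 1 anchor in a fiber loop in 55.5% and a median of 225 kb. Anchors of 5 kb alone gave 94 loops with 2.13% epithelium CTCF and 8.51% fiber CTCF at both anchors, 76.6% outside TADs, 36.2% with a gene end, 36.2% with 1 anchor in a fiber loop and a median of 62.5 kb. With 10 kb anchors alone these were 561, 8.73%, 21.7%, 56.9%, 51.3%, 53.7% and 120 kb, and with 25 kb anchors 1043, 13.9%, 30.9%, 59.4% (gene end) and 375 kb. Anchors widened by 5 kb had 17.2% epithelium and 37.1% fiber CTCF at both, and a fiber peak list of the same size as the epithelium list gave 18.1%. Neither anchor lay in a fiber TAD in 53.0% or in an ES cell TAD in 48.7%, and a gene end at the anchor midpoint was found in 5.95%. Leaving out loops with a ratio above 10 or longer than 3 Mb, an alternative chosen after seeing the data, left 1646 loops and moved no value. As reported and under the 11 alternatives compared in this way, the share with CTCF at both anchors was lower than in loops with a counterpart, by a factor between 0.150 and 0.683.

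With 1 merged map per cell type, a loop near the detection limit in 1 cell type can be missing from a list of another by counting error, and this was not tested.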

Other observations

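On the X chromosome, which the choice of loops left out, the epithelium list held 165 loops, of which 46 had no counterpart in the fiber or ES cell list (27.9%, 95% Wilson interval 21.6 to 35.2). Their median size was 238 kb (100 to 450). A fiber CTCF peak lay at both anchors of 5 of them (10.9%, 4.73 to 23.0), against 29 of the 119 X-chromosomal loops with a counterpart (24.4%, 17.5 to 32.8), and these intervals overlapped.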
